A study of Mus musculus with 10 samples.

Results

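The genes described here are the kinesin motors, the centromere (CENP) proteins and 11 spindle checkpoint and mitotic regulators, as read in leukemic mouse spleens with and without deletion of Sirt1. They were chosen by symbol: every row starting with Kif and a digit or with Cenp and a letter, plus Aurka, Aurkb, Plk1, Bub1, Bub1b, Mad2l1, Ttk, Ccnb1, Ccnb2, Cdc20 and Top2a. Symbols with a letter after Kif, such as Kifc1, Kifc2, Kifc3 and Kifap3, are therefore outside the set. Of the 16865 gene symbols listed, 68 matched, and 61 of these had a normalized count of 10 or more in at least 5 of the 10 libraries. These 61 are 29 Kif genes, 21 Cenp genes and the 11 named regulators, among 13567 genes tested. The 7 left out were Kif16bos, Kif17, Kif19a, Kif1a, Kif26a, Kif26b and Kif5a, whose highest value in any library was 13.7, for Kif5a.

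The study used T-cell acute lymphoblastic leukemias (T-ALL) carrying a conditional Sirt1 allele, transplanted by vein into mice that had received sublethal irradiation, so host cells remained in the spleens. Recipients behind the 5 control samples received corn oil alone. Those behind the 5 Sirt1 deleted samples received 3 mg of tamoxifen in corn oil, and all 10 samples are labelled C57BL/6. The Cre, the ages, the number of primary leukemias and whether each spleen came from a separate mouse are not given in the labels, so p-values measure only the spread between these samples. There is no group with tamoxifen and intact Sirt1, so drug and deletion cannot be told apart.

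Kinesins are motors that walk along, or take apart, microtubules. Some build the spindle, move chromosomes and split the cell, while others carry cargo in cells that are not dividing. The centromere is marked by the histone variant CENP-A, on which the constitutive centromere-associated network (CCAN) of inner kinetochore proteins is built. The outer kinetochore holds microtubules, and the spindle checkpoint delays the separation of chromosomes until all are attached. Many of the mitotic genes among them are transcribed in G2 and mitosis, and in a proliferating leukemia those are known as markers of cycling cells.

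Sirt1 itself checks the labels. It measured 1324, 1348, 1174, 1192 and 1126 normalized counts in the 5 control libraries, numbered 1 to 5, and 922, 824, 1071, 1061 and 710 in the Sirt1 deleted libraries. The groups do not overlap, and the mean fell from 1233 ± 97.6 to 918 ± 155 (SD, n = 5 each), to 74.4% of control (log2 difference -0.44, SE 0.107, exact permutation p = 0.00794, two-sided, the smallest 5 against 5 allows). Groups without overlap were also found for 16.5% of all genes tested, so the lack of overlap is not particular to Sirt1. The Sirt1 difference was -0.26 and still called after the correction for transcript length and GC content. With the length slope of every library as a covariate it was -0.0070 and not called, in a fit that called no gene at all. Totals were 33.6 M to 34.8 M normalized counts a library, from an estimated 21.4 M to 44.5 M reads, so that a normalized count of 1000 rests on about 624 to 1315 reads, a counting error of 4% to 2.76%. Summed T-cell and T-ALL markers (12 of 12 tested) spanned 263628 to 295446 in control and 254672 to 292844 in Sirt1 deleted libraries, and the other lists were 249 to 326 against 308 to 501 for B cells (9 tested), 11030 to 16027 against 6736 to 10287 for macrophages (11), 1591 to 4270 against 2104 to 8667 for neutrophils (9) and 379300 to 476671 against 183349 to 408650 for erythroid cells (10). No tested marker was at 0 in any library. In bulk RNA, fewer cells of a type and less RNA per cell cannot be told apart, and the part of these shifts in the results was not tested except where a value is given.

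On the deposited values, called genes of the inner kinetochore were higher (8 of 16, none lower). Called genes among the other kinesins, the Kif genes of the set not listed as mitotic, were lower (9 of 18, none higher). Most of the mitotic kinesins, checkpoint genes, kinases and cyclins did not pass the test (16 of 22). The inner kinetochore genes are short (median longest transcript 1791 bases) and the other kinesins long (5834 bases), and a difference between roles was not tested. After correction for transcript length and GC content 5 of the 16 were higher and 3 of the 18 lower (medians 0.13 and -0.0021). Among these 5, Cenpl had not been called on the deposited values (0.01). Over all genes 8.29% were higher and 6.07% lower after that correction. With the length slope of every library as a covariate no member was called, and no other gene was either. These slopes do not overlap between the groups, so that fit cannot tell a group difference from a length trend. In all, 13 of 61 members rose and 14 fell at an adjusted p of at most 0.05 (limma on log2(value + 1), Benjamini-Hochberg over all genes tested). Over all genes tested 32% were called, 14.5% higher and 17.5% lower. The median log2 difference of the members was -0.02, against 0.00 for all genes. With every library scaled to the same total 9 members rose and 16 fell, and with quantile normalization 16 rose and 11 fell. Leaving out 1 library at a time gave 4 to 15 higher and 8 to 19 lower, the fewest without control library 1 or 2, when 4 inner kinetochore genes rose and 7 other kinesins fell.

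Some members were also ordered without overlap, every library of one group above every library of the other. This held for 5 members that were higher and 5 that were lower in the Sirt1 deleted group, where the whole table had 16.5% of genes without overlap, 8.28% higher and 8.18% lower. The plot of differences by role shows the split.

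**Figure D1:**
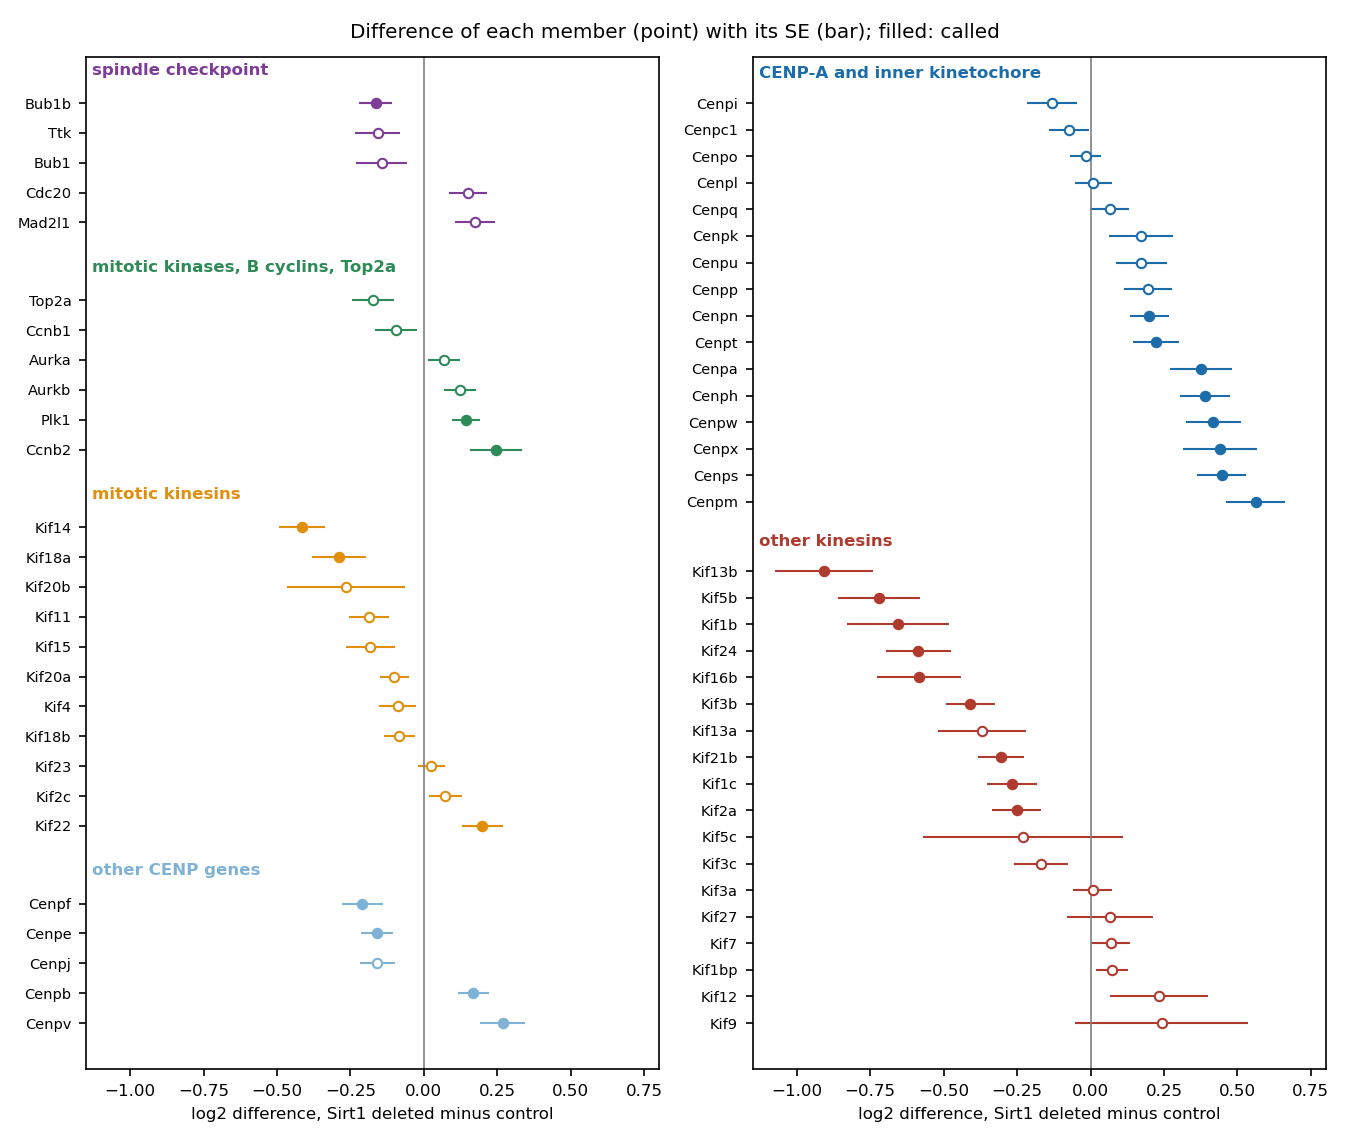
Each point is the log2 difference of 1 gene, Sirt1 deleted minus control, on log2(normalized count + 1), with its SE as a bar (n = 5 each), and filled points are those called at an adjusted p of at most 0.05. Inner kinetochore genes lie from -0.13 to 0.56 and other kinesins from -0.91 to 0.24, while the genes in the other groups lie from -0.41 to 0.27.

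The promoters of 5 members are shown because they carry the letters typical of genes expressed in G2 and mitosis, and because these 5 genes did not move together. The cell cycle genes homology region, read by the DREAM and MuvB complexes, is commonly TTTGAA or TTCGAA, and CCAAT is the box bound by NF-Y. The stretches are 180 bases from RefSeq on GRCm38.p6, written 5′ to 3′ on the gene's strand and ending before the first annotated start, with these letters in capitals on either strand, so that TTCAAA and ATTGG are the reverse complements of the first and the last, and TTCGAA reads the same on both strands.
Ccnb2, chr9:70421555-70421734, minus strand: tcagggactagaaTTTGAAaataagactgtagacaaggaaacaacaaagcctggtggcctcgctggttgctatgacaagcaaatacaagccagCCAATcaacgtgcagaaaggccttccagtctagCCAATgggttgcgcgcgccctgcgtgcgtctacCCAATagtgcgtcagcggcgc
Cdc20, chr4:118437353-118437532, minus strand: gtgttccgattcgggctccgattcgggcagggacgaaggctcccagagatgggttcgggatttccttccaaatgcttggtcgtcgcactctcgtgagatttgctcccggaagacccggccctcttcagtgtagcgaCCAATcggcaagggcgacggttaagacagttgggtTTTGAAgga
Top2a, chr11:99024190-99024369, minus strand: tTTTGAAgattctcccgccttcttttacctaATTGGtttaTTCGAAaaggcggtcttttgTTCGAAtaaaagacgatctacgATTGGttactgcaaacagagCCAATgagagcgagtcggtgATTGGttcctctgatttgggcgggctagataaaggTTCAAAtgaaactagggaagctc
Kif11, chr19:37376202-37376381, plus strand: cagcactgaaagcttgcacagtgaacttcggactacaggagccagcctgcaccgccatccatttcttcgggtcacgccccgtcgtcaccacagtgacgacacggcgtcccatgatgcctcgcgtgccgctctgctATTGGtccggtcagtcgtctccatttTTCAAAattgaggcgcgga
Kif24, chr4:41464888-41465067, minus strand: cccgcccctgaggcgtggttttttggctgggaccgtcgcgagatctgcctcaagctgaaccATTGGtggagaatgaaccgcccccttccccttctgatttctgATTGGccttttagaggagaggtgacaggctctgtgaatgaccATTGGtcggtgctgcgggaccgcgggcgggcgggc

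In these stretches Ccnb2 holds 1 TTTGAA and 3 CCAAT boxes, Cdc20 has 1 of each, Top2a has 2 TTTGAA, 2 TTCGAA and 4 CCAAT, and Kif11 has 1 TTTGAA and 1 CCAAT. Kif24, a centriolar kinesin, has 3 CCAAT boxes and neither of the other motifs in the part shown, and its TTCGAA lies in the window outside that part. Of these 5 genes Ccnb2 rose by 0.25 and Kif24 fell by 0.59 (log2 differences), whereas Cdc20 (0.15), Top2a (-0.17) and Kif11 (-0.19) did not pass the test.

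RefSeq promoter windows of 300 bases (250 before to 50 after the start) were found for 55 of the 61 members. TTTGAA was in 22 of them (40%) and in 20.2% of the windows of 27025 gene symbols. TTCGAA was in 5 (9.09%) against 1.8%, and CCAAT in 34 (61.8%) against 41.1%. By role, TTTGAA or TTCGAA was present in 9 of 10 mitotic kinesins, 4 of 5 checkpoint genes, 4 of 5 kinases and cyclins with Top2a, 5 of 16 inner kinetochore genes, 1 of 5 other CENP genes and 2 of 14 other kinesins.

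Members with and without these letters were called in both directions, and a difference between them was not tested. Among the 25 members with TTTGAA or TTCGAA 7 rose and 4 fell (median log2 difference 0.01), and among the 30 without them 6 rose and 7 fell (median -0.0042). With TTTGAA alone counted, 6 rose and 3 fell of 22 with it, and 7 rose and 8 fell of 33 without. Of the 5 with TTCGAA 1 rose and 2 fell (median -0.16). A match describes letters in a window and is not a bound site.

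The spindle checkpoint genes moved little. Of the 5, Bub1b fell and none rose, with a median log2 difference of -0.14. With quantile normalization Cdc20 and Mad2l1 were called higher (0.21 and 0.25) and Bub1b was not called (-0.11), and with array weights Cdc20 and Mad2l1 were called higher (0.20 and 0.17) beside Bub1b lower. Bub1b, which encodes BubR1 of the mitotic checkpoint complex, measured 9953, 9674, 9708, 9037 and 9085 in control and 8465, 8407, 8661, 9183 and 7666 in Sirt1 deleted libraries. Sirt1 deleted library 4 lay inside the control range, and the mean fell from 9491 ± 408 to 8476 ± 546 (log2 difference -0.16, SE 0.0554, limma adjusted p = 0.0383).

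Bub1, the kinase that recruits checkpoint proteins to kinetochores, measured 3338, 3469, 3093, 3309 and 3002 in control and 2826, 2696, 3414, 3340 and 2486 in Sirt1 deleted libraries. The groups overlapped, with Sirt1 deleted libraries 3 and 4 among the control values and library 5 lowest (log2 difference -0.14, SE 0.0856, limma adjusted p = 0.207). Ttk, the MPS1 kinase that starts checkpoint signalling, measured 1314, 1354, 1231, 1209 and 1257 against 1087, 1157, 1288, 1226 and 970.7 (log2 difference -0.16, SE 0.0759). The same 2 Sirt1 deleted libraries lay within the control range, and the adjusted p was 0.125 (limma).

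Mad2l1, which encodes MAD2, the inhibitor that binds CDC20, measured 3818, 3966, 4059, 4094 and 4244 in control and 3869, 4429, 4974, 4600 and 4966 in Sirt1 deleted libraries. Of the Sirt1 deleted libraries 4 were above all controls and library 1 was not (log2 difference 0.17, SE 0.0683, limma adjusted p = 0.0675). Cdc20, the activator of the anaphase promoting complex, measured 6652, 6306, 7240, 6663 and 7895 against 7043, 7839, 7584, 8296 and 7741. Control library 5 was higher than 4 of the 5 Sirt1 deleted libraries (log2 difference 0.15, SE 0.0662, limma adjusted p = 0.0955).

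Among the mitotic kinases, B cyclins and topoisomerase, Plk1 and Ccnb2 rose and the other 4 were not called. Plk1, the polo kinase of mitotic entry and kinetochores, measured 5259, 4928, 5054, 5146 and 5334 in control and 5327, 5981, 5580, 5676 and 5838 in Sirt1 deleted libraries. The groups touched at control library 5 and Sirt1 deleted library 1 (5144 ± 161 to 5680 ± 250, log2 difference 0.14, SE 0.0478, limma adjusted p = 0.0377). Ccnb2, which encodes cyclin B2, measured 4858, 4791, 5522, 4942 and 6433 against 5425, 6194, 6536, 6247 and 6976. Control library 5 lay above 3 Sirt1 deleted libraries (5309 ± 692 to 6276 ± 567.8, log2 difference 0.25, SE 0.0873, limma adjusted p = 0.0468).

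Ccnb1, the main partner of CDK1 in mitosis, went the other way in sign. It measured 7753, 8163, 8652, 7770 and 8267 in control and 6801, 7312, 8310, 8708 and 7016 in Sirt1 deleted libraries, with the groups overlapping (log2 difference -0.10, SE 0.0708, limma adjusted p = 0.31). Aurka, the Aurora kinase of spindle poles, measured 3183, 3029, 3390, 3091 and 3162 against 3079, 3429, 3292, 3589 and 3231 (log2 difference 0.07, SE 0.0543, limma adjusted p = 0.355). Its groups overlapped through most of their range.

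Aurkb, the Aurora kinase of the chromosome passenger complex at centromeres, measured 5356, 5593, 5747, 5394 and 5381 in control and 5393, 5893, 5908, 6394 and 6357 in Sirt1 deleted libraries. Only Sirt1 deleted library 1 fell among the controls, and the difference of 0.12 (SE 0.0547) had a limma adjusted p of 0.1. Top2a, the topoisomerase that untangles sister chromatids, measured 29774, 32388, 27181, 27643 and 25835 against 25004, 24319, 27762, 26641 and 22935. Sirt1 deleted libraries 3 and 4 lay among the controls (log2 difference -0.17, SE 0.0714, limma adjusted p = 0.0796). Per kilobase of longest transcript, Top2a had the highest control level of all members (5471), followed by Cdc20 (3877), Ccnb2 (3468) and Ccnb1 (3263).

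Of the 11 mitotic kinesins 1 rose, 2 fell and 8 did not pass the test, with a median log2 difference of -0.10. Kif14, a motor of the midbody that works with citron kinase in cytokinesis (chr1:136466343-136531511, GRCm38), fell most. It measured 2345, 2381, 2244, 2116 and 2021 in control and 1707, 1528, 1784, 1886 and 1451 in Sirt1 deleted libraries. Every Sirt1 deleted library was below every control (2221 ± 152 to 1671 ± 180, log2 difference -0.41, SE 0.0778, limma adjusted p = 0.00797).

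Kif18a, which damps chromosome movements at the metaphase plate, fell from 1322 ± 70.6 to 1090 ± 156 (SD, n = 5 each, log2 difference -0.29, limma adjusted p = 0.0298). Kif22, a chromokinesin that pushes chromosome arms toward the plate, rose from 4758 ± 151 to 5488 ± 624 (log2 difference 0.20, limma adjusted p = 0.0458).

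The other mitotic motors stayed within 0.27 of 0 on the log2 scale. Kif11, the bipolar motor that pushes spindle poles apart and the most abundant of these motors per kilobase in control, had a difference of -0.19 (limma adjusted p = 0.0523). Kif15, which can share that task, had -0.18, Kif20a of the central spindle -0.10, the chromokinesin Kif4 -0.09 and Kif18b -0.08. Kif23, a part of centralspindlin, had 0.03, and Kif2c, the microtubule depolymerase of centromeres, had 0.07. Kif20b, a cytokinesis motor, ranged from 376 to 661 in control and from 333 to 609 in Sirt1 deleted libraries, a spread that did not follow the groups (log2 difference -0.26, SE 0.201).

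The centromere genes rose as far as they moved within the inner kinetochore. Of CENP-A and the 15 CCAN genes, 8 rose, none fell and 8 did not pass the test, with a median log2 difference of 0.20, and 4 were higher without overlap. Split by known subcomplex after their values were seen, all 4 of the histone-fold genes Cenpt, Cenpw, Cenps and Cenpx rose, as did Cenph and Cenpm of the 4 in CENP-H, I, K and M. Cenpn rose of the pair Cenpl and Cenpn, and none of Cenpo, Cenpp, Cenpq and Cenpu passed the test. After the correction for length and GC content, Cenpw was the 1 of the 4 histone-fold genes still called, and their median went from 0.43 to 0.16.

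Cenpm (chr15:82233779-82244748, GRCm38), a small subunit of the CENP-H, I, K and M complex, had the largest rise. It measured 819.7, 633, 720.3, 731.9 and 871.2 in control and 984.5, 1083, 1046, 1105 and 1361 in Sirt1 deleted libraries. The groups do not overlap (755 ± 92.6 to 1116 ± 145, log2 difference 0.56, SE 0.1, limma adjusted p = 0.00797). Cenph, of the same complex, measured 935.5, 1014, 875.7, 975.4 and 1060 against 1064, 1250, 1409, 1235 and 1433. Its groups do not overlap, with control library 5 and Sirt1 deleted library 1 close together (log2 difference 0.39, SE 0.085, limma adjusted p = 0.00923).

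Cenps and Cenpx encode histone-fold proteins that also serve in DNA repair with FANCM. Cenps measured 602, 661, 628, 649 and 686 in control and 819, 808, 890, 818 and 1086 in Sirt1 deleted libraries, without overlap (log2 difference 0.45, SE 0.0847, limma adjusted p = 0.00797). Cenpx measured 1137, 1105, 1352, 1193 and 1452 against 1535, 1803, 1430, 1473 and 2336, with control library 5 above Sirt1 deleted library 3 (log2 difference 0.44, SE 0.126, limma adjusted p = 0.0209). For both genes Sirt1 deleted library 5 was the highest of all.

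Cenpw, the histone-fold partner of CENP-T, measured 505, 450, 461, 522 and 558 in control and 565, 634, 760.5, 643 and 744 in Sirt1 deleted libraries. The groups do not overlap (499 ± 44.2 to 669 ± 81.9, log2 difference 0.42, SE 0.0938, limma adjusted p = 0.00999). Cenpa, which encodes the centromeric histone itself, measured 2898, 2706, 3476, 2959 and 3965 against 3498, 4203, 4320, 3877 and 4799. Control library 5 lay above 2 Sirt1 deleted libraries (3201 ± 514 to 4139 ± 488, log2 difference 0.38, SE 0.106, limma adjusted p = 0.0197).

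Cenpt, which reaches from the centromere to the outer kinetochore, rose from 963 ± 59.0 to 1129 ± 134 (log2 difference 0.22, limma adjusted p = 0.0481). Cenpn, which binds the CENP-A nucleosome, rose from 840 ± 27.9 to 967 ± 82.1 (0.20, limma adjusted p = 0.0373). The 8 inner kinetochore genes that did not pass the test had differences of -0.13 (Cenpi), -0.07 (Cenpc1, the CENP-C scaffold), -0.02 (Cenpo), 0.01 (Cenpl), 0.07 (Cenpq), 0.17 (Cenpk and Cenpu) and 0.20 (Cenpp).

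**Figure D2:**
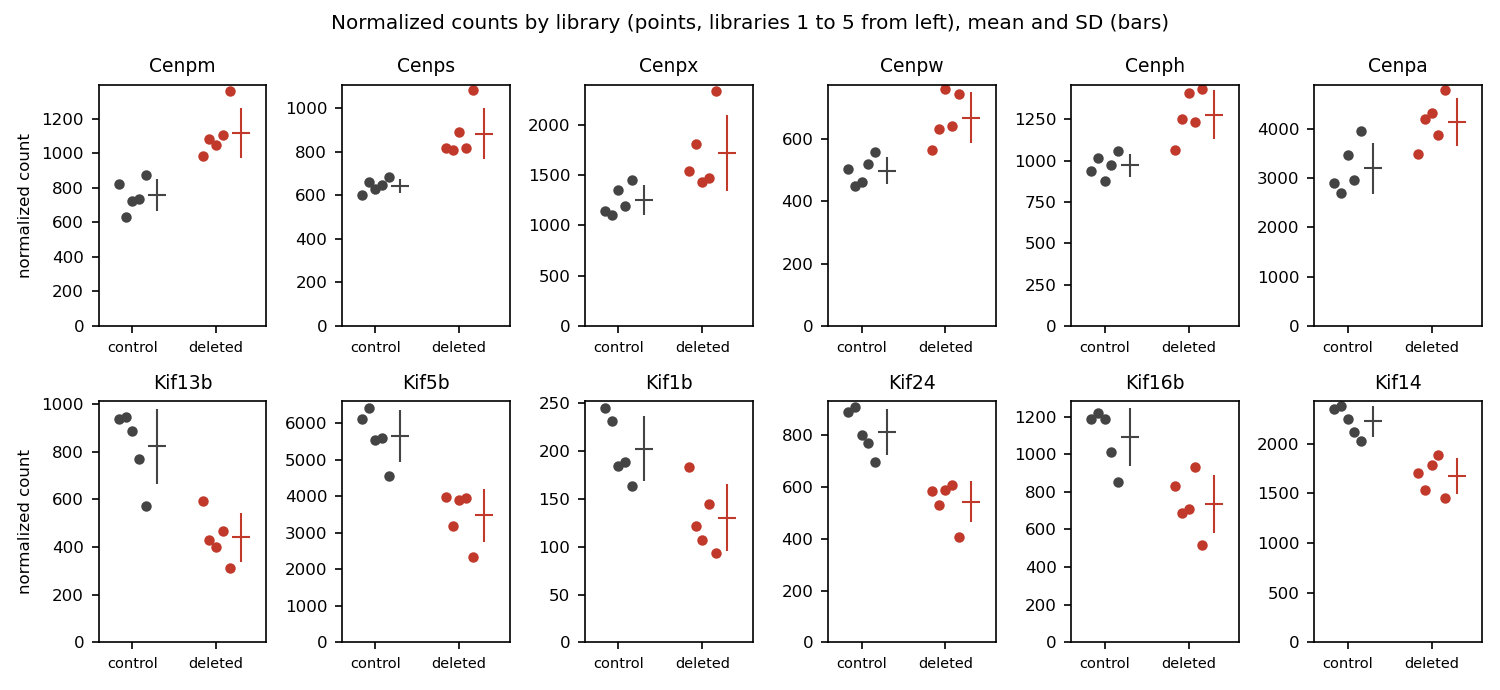
Normalized counts (linear axes from 0) of the 6 largest called rises and 6 largest called falls among Kif and Cenp genes, 1 point per library in the order 1 to 5 from the left, with the mean and SD as bars (n = 5 each). The Cenpm groups do not overlap (633 to 871.2 against 984.5 to 1361), and Sirt1 deleted library 5 is the lowest for each of the 6 kinesins.

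The other CENP genes went both ways. Cenpb, whose protein binds the CENP-B box of satellite DNA, rose from 5447 ± 160 to 6127 ± 398 without overlap (log2 difference 0.17, limma adjusted p = 0.0297), and Cenpv, which encodes a microtubule-associated protein, rose from 2267 ± 160 to 2737 ± 305 (0.27, limma adjusted p = 0.021). Cenpe, a kinesin that brings chromosomes to the plate although its name is that of a CENP gene, fell from 4919 ± 299 to 4399 ± 207 (-0.16, limma adjusted p = 0.0401). Cenpf, a large protein of the kinetochore corona, fell from 5481 ± 464 to 4737 ± 376 (-0.21, limma adjusted p = 0.0372). After the correction for length and GC content Cenpe (0.20), Cenpf (0.19) and Cenpv (-0.13) had the opposite sign and were not called, and with quantile normalization Cenpe (-0.08) and Cenpf (-0.13) were not called. Cenpj, a centriole protein, was lower without overlap and did not pass the test (-0.16, limma adjusted p = 0.056).

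The other kinesins, the Kif genes of the set not listed as mitotic, held its largest falls. Of 18 genes in that group 9 fell, none rose and 9 did not pass the test, with a median log2 difference of -0.26, and 3 were lower without overlap. One of them, Kif1bp, encodes a kinesin-binding protein and not a motor. Kif13b (chr14:64647265-64809617, GRCm38), a motor that carries the polarity protein DLG1, measured 937.6, 947, 888, 770.5 and 571.7 in control and 595.2, 429.8, 400.8, 466.6 and 311.4 in Sirt1 deleted libraries. Control library 5 lay below Sirt1 deleted library 1, and the mean fell from 823 ± 157 to 441 ± 104, to 53.6% of control (log2 difference -0.91, SE 0.168, limma adjusted p = 0.00797).

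Kif5b, the conventional kinesin heavy chain found in most tissues, measured 6116, 6399, 5532, 5592 and 4558 in control and 3986, 3177, 3908, 3957 and 2333 in Sirt1 deleted libraries. Every Sirt1 deleted library was below every control (5640 ± 705 to 3472 ± 720, log2 difference -0.72, SE 0.139, limma adjusted p = 0.00797). Kif1b, which carries mitochondria and vesicle precursors, measured 244.4, 231.3, 184.3, 187.9 and 163.5 against 182.6, 122, 107.4, 144.8 and 93.57. Sirt1 deleted library 1 lay within the control range (log2 difference -0.66, SE 0.174, limma adjusted p = 0.0161).

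Kif24 (chr4:41390745-41464887, GRCm38), which restrains the growth of cilia from centrioles, measured 888.9, 905.7, 798.2, 770.5 and 693.9 in control and 585.4, 530, 585.8, 606.4 and 408.1 in Sirt1 deleted libraries. The groups do not overlap (811 ± 87.4 to 543 ± 80.7, log2 difference -0.59, SE 0.112, limma adjusted p = 0.00797). Kif16b, a motor of early endosomes, measured 1185, 1219, 1186, 1010 and 854.9 against 830.7, 689.9, 707.5, 929.7 and 519.4. Sirt1 deleted library 4 exceeded control library 5 (log2 difference -0.58, SE 0.143, limma adjusted p = 0.0126).

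Smaller falls were found for 4 more. Kif3b, a subunit of the kinesin-2 motor of cilia, fell from 1272 ± 95.6 to 960 ± 105 without overlap (log2 difference -0.41, limma adjusted p = 0.00855), while its partner Kif3a did not pass the test (0.01). Kif21b, which limits microtubule growth in T cells and had the highest level per kilobase in this group (1341 in control), fell by 0.30 on the log2 scale (limma adjusted p = 0.0146). Kif1c, a vesicle motor, fell by 0.27 and Kif2a, a microtubule depolymerase, fell by 0.25 (limma adjusted p = 0.0309 and 0.0363). The differences of the 9 that did not pass ran from -0.37 for Kif13a to 0.24 for Kif9, and among them Kif5c and Kif9 had mean counts under 24 in both groups.

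The direction of a member followed the length of its transcript. The 15 members with a longest transcript of up to 2000 bases included 9 that rose and none that fell (median log2 difference 0.22). The 27 members of 2000 to 5000 bases included 4 that rose and 2 that fell (median -0.02), and the 19 longer ones included none that rose and 12 that fell (median -0.27). Over all tested genes in the same ranges, 1326 of 3674 short genes rose and 66 fell (36.1% and 1.8%, median 0.21), 572 of 7042 rose and 946 fell (8.12% and 13.4%, median -0.02), and 45 of 2588 long genes rose and 1326 fell (1.74% and 51.2%, median -0.28). The median length was 3421 bases for the members and 3001 for all genes. Across genes, which are not independent and share the same 10 libraries, Spearman's rho between difference and length was -0.81 for the 61 members and -0.58 for all genes with a length.

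In each library, the slope of the genes' log2 deviations from their means on the log2 of length ordered the 2 groups as well. It was 0.121, 0.125, 0.0886, 0.065 and 0.0032 in the control and -0.0187, -0.0967, -0.0462, -0.0404 and -0.201 in the Sirt1 deleted libraries. Sirt1 deleted library 5, with the steepest negative slope, had the lowest value for 26 of the 61 members and the highest for 10, and control library 2 had the highest for 19. The map of members by library shows these columns standing out. The median deviation of the other kinesins was 0.27 in control library 1, 0.02 in control library 5, -0.03 in Sirt1 deleted library 1 and -0.36 in Sirt1 deleted library 5.

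**Figure D3:**
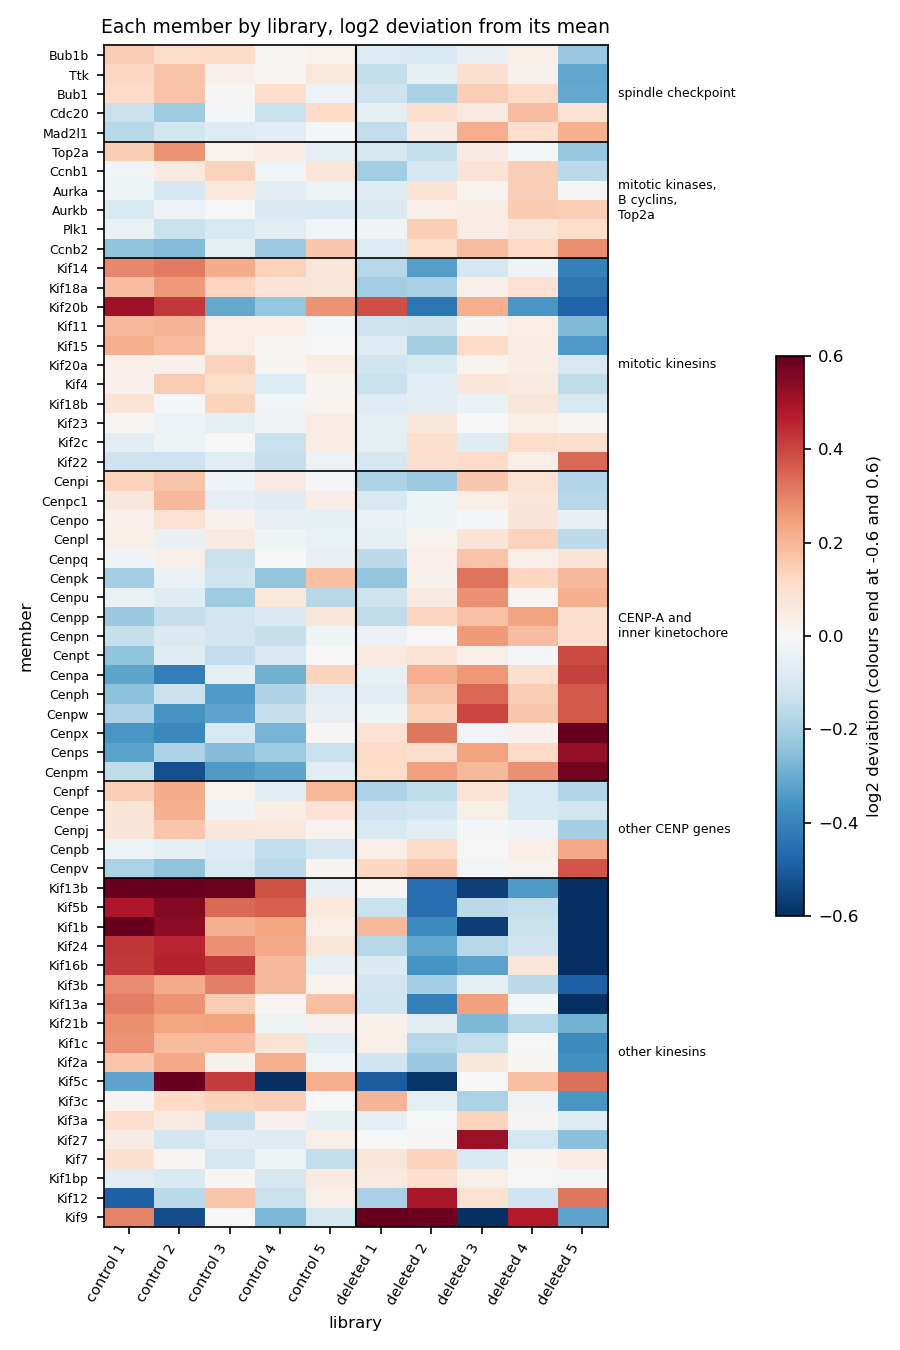
Each row is a member and each column a library, coloured by the log2 deviation from the member's mean over the 10 libraries (colours end at -0.6 and 0.6), with members grouped by role. Sirt1 deleted library 5 is lowest for 26 members, mostly blue among the other kinesins, and is red for many inner kinetochore genes.

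Values were therefore also compared after removing, in each library, a smooth trend on length and GC content fitted over 13304 genes. After this correction 7 members rose and 3 fell, where 14.4% of all genes were called, 8.29% higher and 6.07% lower. Of the 27 members called on the deposited values, 8 were called in the same direction, 15 were no longer called and 4 changed sign (Cenpe, Cenpf, Cenpv and Kif2a). The 8 were Cenpm, Cenph, Cenpa, Cenpw and Cenpb, which were higher, and Kif13b, Kif5b and Kif24, which were lower.

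Their corrected log2 differences were 0.30 for Cenpm, 0.24 for Cenph, 0.25 for Cenpa, 0.61 for Cenpw and 0.28 for Cenpb. Among the kinesins they were -0.60 for Kif13b, -0.41 for Kif5b and -0.35 for Kif24. By role, 5 of 16 inner kinetochore genes were higher (Cenpm, Cenph, Cenpa, Cenpw and the newly called Cenpl, median 0.13). Of the other kinesins 3 of 18 were lower (median -0.0021). No mitotic kinesin and none of the kinases, cyclins and Top2a was called after it, and Kif14 moved from -0.41 to -0.05. In the corrected values the rho with length was -0.22 for the 61 members and -0.53 for the 29 Kif genes.

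The correction rests on the transcript taken to stand for a gene. Mad2l1 (0.54) and Cenpl (0.25) were called higher after correction and not on the deposited values, from longest transcripts of 7557 and 4883 bases, while their shortest coding transcripts have 1725 and 1910 bases. With the principal transcript of each gene instead, Cenpl was at -0.0053 and not called, Cenpw was at 0.36 and called, and Mad2l1 was the same.

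**Figure D4:**
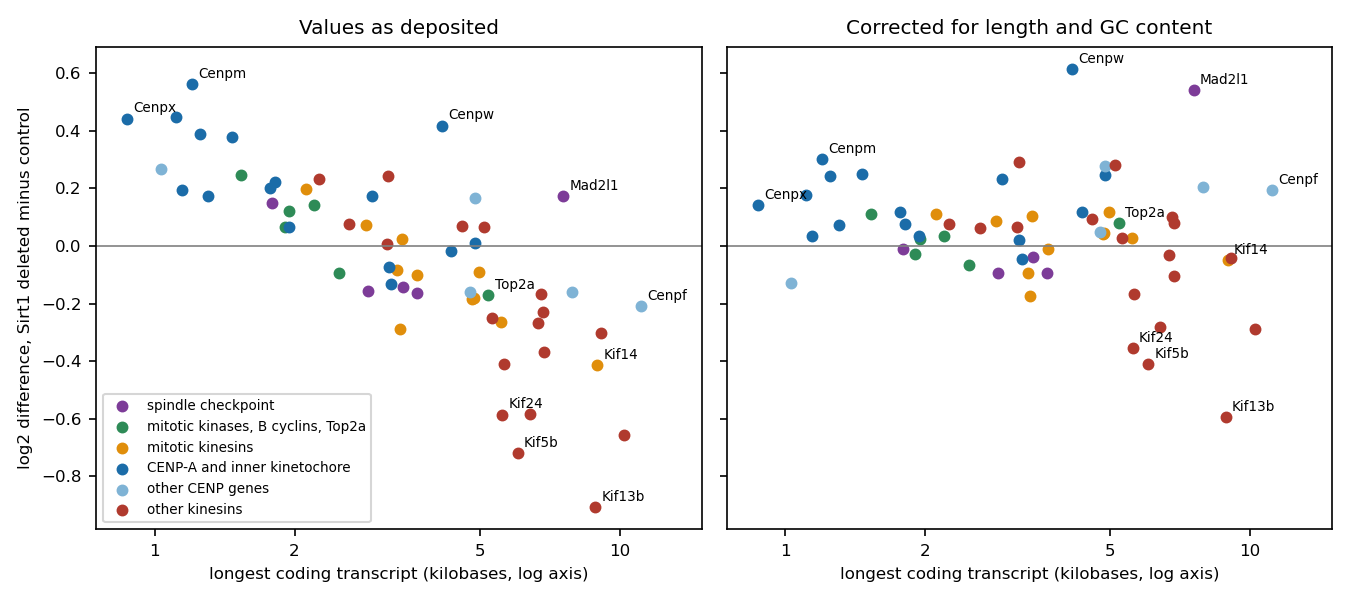
Log2 difference of each member, Sirt1 deleted minus control, against the length of its longest coding transcript in kilobases (log axis), as deposited (left) and corrected for length and GC content (right), coloured by role. On the left the points fall from short to long (rho -0.81), and on the right most lie near 0 (rho -0.22), with Kif13b, Kif5b and Kif24 below and Cenpw and Mad2l1 above.

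The counts also changed without the libraries with the steepest slopes, where fewer samples entered the fit. Without control libraries 1 and 2 and Sirt1 deleted library 5, no member was called by limma, with 15 of 61 at an unadjusted p under 0.05. Over all genes tested only 3 were called in that fit, against 4344 with all 10 libraries, and leaving out other sets of 3 libraries was not tested. The differences kept 65.8% of their size in the median of the 27 called members, and the inner kinetochore genes had a median of 0.15 and the other kinesins of -0.16. With the mean log2 value of the B-cell markers as a covariate no member was called either (18 at an unadjusted p under 0.05, 83.8% of the difference left). Over all genes tested 1 was called in that fit. With the mean over macrophage and neutrophil markers together as a covariate 10 members rose and 14 fell. Those lists went in opposite directions (median log2 differences -0.53 and 0.91). Their joint mean therefore follows neither list, and this fit cannot show the part of either cell type.

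Neighbouring parts of the division machinery were read from 8 lists of 102 tested genes outside the set. Together 16 rose, 20 fell and 66 did not pass the test, and the shares of 15.7% and 19.6% lie near the 14.5% and 17.5% of all genes. After correction 13 were higher and 3 lower, of which 9 and 3 had been called in that direction before it. In the anaphase promoting complex and its partners 5 of 18 rose and 2 fell, and Ube2c, the E2 enzyme that starts ubiquitin chains for the complex, rose from 5716 ± 821 to 7970 ± 656 (log2 difference 0.49, limma adjusted p = 0.00797, 0.38 and still called after correction). Ube2s, which lengthens the chains, rose by 0.35 (limma adjusted p = 0.00855, 0.05 after correction and not called).

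In the outer kinetochore 4 of 13 rose and none fell, among them Pmf1 of the MIS12 complex (0.34, limma adjusted p = 0.00855) and Spc24 of the NDC80 complex (0.31, limma adjusted p = 0.00906). In the chromosome passenger and CENP-A loading list 2 of 9 rose, the passenger subunits Birc5 (0.25, limma adjusted p = 0.0203) and Cdca8 (0.19, limma adjusted p = 0.0236). Of these 4 genes only Birc5 was called after correction at the longest transcript (0.32), and at its principal transcript it was at 0.02 and not called. The other called genes of the outer kinetochore list, Ndc80 (0.25) and Ska1 (0.31), which bind microtubules, were called after correction too (0.25 and 0.34), as were Knl1 (0.23) and Nsl1 (0.22), and these 4 are named after their values were seen.

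On the deposited values falls prevailed among spindle and cytokinesis genes (8 of 17 fell, none rose) and condensin, cohesin and separase (6 of 15 fell, 1 rose). Their median longest transcripts have 3526 and 4684 bases, against 3001 for all genes. After correction 1 gene in each list was lower and none higher (medians -0.0049 and 0.04). Aspm, a spindle pole protein, fell by 0.30 (limma adjusted p = 0.00855), Ckap5, a microtubule polymerase, fell by 0.33 (limma adjusted p = 0.00872), the condensin subunit Ncapd3 fell by 0.22 (limma adjusted p = 0.012) and the cohesin subunit Stag2 fell by 0.44 (limma adjusted p = 0.0121). None of these 4 was called after correction, where Aspm was at 0.09, Ckap5 at -0.0049, Ncapd3 at 0.04 and Stag2 at -0.11. Larger falls in the same lists, named after their values were seen, were called before and after it: the cytokinesis regulator Ect2 (-0.52, -0.35 after correction) and the condensin subunit Ncapg2 (-0.63, -0.42 after correction). The checkpoint and RZZ list had 1 of 8 higher and 2 lower, Kntc1 (-0.28, limma adjusted p = 0.0142) and Zw10 (-0.28, limma adjusted p = 0.0312), both of the complex that recruits dynein to kinetochores, and after correction neither was called.

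Of 12 genes of mitotic entry and G2/M transcription 2 rose and 1 fell. Pkmyt1, a kinase that holds CDK1 inactive, rose from 1831 ± 109 to 2458 ± 140 without overlap (log2 difference 0.43, limma adjusted p = 0.00797, 0.17 and called after correction). Lin54, the MuvB subunit that binds the cell cycle genes homology region, fell from 1143 ± 125 to 784 ± 186 (-0.57, limma adjusted p = 0.0157, -0.36 and called after correction). The proliferation marker Mki67 did not pass the test (-0.07, and 0.31 after correction, also not called). Among light chains, adaptors and dynein 1 of 10 rose and 1 fell, Kifc2, a minus-end motor (0.43, limma adjusted p = 0.0499), and Kifap3, the adaptor of the kinesin-2 motor (-0.23, limma adjusted p = 0.0354), and neither was called after correction.

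Exons of Cdc20, Cenpk, Cenpo, Cenpp, Cenpq, Cenpt, Cenpu, Kif18a, Kif20a, Kif2a, Kif3c, Kif4 and Kif7 overlap those of a listed gene on the opposite strand, and exons of Cenpb overlap Spef1 on the same strand. The libraries are strand-specific, and whether strand was used in quantification is not given in the sources used here, so values of these genes are less certain. Of the 8 genes called before and after correction, only Cenpb is among them.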

How the data were processed

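RNA was measured in 10 leukemic spleens, 5 control and 5 Sirt1 deleted. Per the labels' protocols, red cells were lysed and strand-specific libraries of total RNA were sequenced. The submitters' processing notes name kallisto 0.44.0, DESeq without a version, and mm10. The authors deposited normalized counts (unit signal), 1 column for each library, and 0 columns were left out. Annotation, summing of transcripts per gene and strand setting are not given in the sources used here. Low values lie near multiples of a step (86.0% to 92.4% of values below 6 within 0.1 of a step) but scatter by gene, so whole reads were not recovered and no count model was fitted. Total divided by step gave the estimated reads, and intervals of counting error cover counting only. A spreadsheet had turned 20 symbols into dates, which were kept as listed.

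Genes with at least 10 in at least 5 libraries were tested as log2(value + 1) with limma 3.58.1 (limma-trend) in R 4.3.3, with no covariate, two-sided, with Benjamini-Hochberg adjustment over 13567 genes, called at 0.05. The fold differences understate changes of low genes. The fit was first tested on simulated data with independent noise, where a pass was required only without a length trend. That test does not cover the length trend of these libraries. Lengths and GC content are those of the longest protein-coding transcript in GENCODE M21 (GRCm38), or the longest of any type where none is coding, known for 98.1% of tested genes and all 61 members. The correction took natural splines of 5 degrees of freedom each from the libraries' deviations. Motifs were searched on both strands of RefSeq windows. Tables were made in Python 3.11.15 with pandas 2.3.3 and numpy 2.4.6, and figures with matplotlib 3.10.9.

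Per-library values are given for the 11 named regulators and for the 6 largest called rises and 6 largest called falls among Kif and Cenp genes, and 2 genes of each other list were named by smallest p. Mki67, Ndc80, Ska1, Knl1, Nsl1, Ect2, Ncapg2, the promoters shown and the subcomplexes were chosen after values were seen. The members and lists were chosen with earlier results of these data known. Within-group Pearson r of libraries was 0.984 to 0.994, and 25 alternatives were computed. The labels give no batch.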

Additional observations from a re-analysis of the deposited data

Results flagged for a closer look

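Of 124 groups of 5 values (the members and Sirt1 in each condition), 5 had 1 library set apart from the other 4 by more than 0.71 of the group's range, and chance gives about 1 in 20. These were Cenpe in Sirt1 deleted library 3 (gap 0.814 of the range), Cenpo in Sirt1 deleted library 4 (0.721), Cenpt in Sirt1 deleted library 5 (0.796), Kif20a in control library 3 (0.776) and Kif27 in Sirt1 deleted library 3 (0.722). The values standing apart were 4765 for Cenpe, 1364 for Cenpo, 1364 for Cenpt, 5559 for Kif20a and 106.2 for Kif27, each the highest of its group.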

How the results depend on the processing

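With correction for length and GC content 7 members rose and 3 fell, with a median of 0.048, and 13 genes of the other lists rose instead of 16 and 3 fell instead of 20, while Cenpe (0.20), Cenpf (0.19), Cenpv (-0.13) and Kif2a (0.028) changed sign. At the principal transcript, an alternative chosen after seeing the data, the counts were 6 and 3, the median 0.056, and the same 4 genes were at 0.21, 0.19, -0.13 and 0.033. With the length slopes as a covariate 0 rose and 0 fell by limma (0 at an unadjusted p under 0.05), the median was 0.046, Sirt1 was at -0.0070, and these changed sign: Bub1b 0.0081, Ccnb2 -0.066, Cenpa -0.038, Cenpt -0.070, Cenpv -0.033, Cenpx -0.13, Kif16b 0.067, Kif18a 0.022, Kif1b 0.0078, Kif1c 0.10, Kif22 -0.057 and Kif2a 0.046. With B-cell markers as a covariate 0 and 0 were called (18 unadjusted) and Sirt1 was at -0.27. Without the 3 steepest libraries 0 and 0 were called (15 unadjusted) and Sirt1 was at -0.27. Over all genes tested, 0, 1 and 3 were called in these last 3 fits, against 4344 with all 10 libraries and no covariate. The cause was not tested. Fewer samples or fewer residual degrees of freedom enter these fits, and the length slopes by themselves separate the 2 groups. The fit with macrophage and neutrophil markers, which also adds 1 covariate, called 4126 genes. Fits without 1 library called 2200 to 4712.

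Leaving out 1 library at a time gave 4 to 15 members higher and 8 to 19 lower, with a median of -0.06 to 0.0027, Sirt1 at -0.50 to -0.35, and no change of sign among the called members. The fewest were without control library 1 or 2 (4 higher, 8 lower each), then without Sirt1 deleted library 2 (6 and 8) or 5 (8 and 9), and 7 were higher without control library 3 or 4. No paired analysis was made because the labels link no control sample to a Sirt1 deleted sample.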
